A study of Mus musculus with 12 samples.

Results

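The genes described here belong to the ATF4 stress response and to the cytoplasmic aminoacyl-tRNA synthetases. They were taken by gene name from a list of 40 genes, made up of 12 transcription factors and stress regulators, 8 enzymes of amino acid and one-carbon synthesis, 10 class I synthetases and 10 class II synthetases. Of these, 34 had a row in at least one of the 3 deposited tables of RNA-seq results, against 10289 genes in all with a row in any table. The other 6 (Cebpb, Cebpg, Pycr1, Cars, Lars and Mars) had none, which gives neither a level nor a direction for them.

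RNA-seq was performed on C2C12, a line of mouse myoblasts kept dividing in growth medium (GM) with serum, whose cells fuse into myotubes once serum is lowered. Stable lines carrying a GFP, METTL3 or METTL14 transgene were made by lentiviral infection and puromycin selection, with the cDNA behind a CMV promoter, and the GFP line served as the negative control. The 4 groups were GFP-overexpressing cells in GM (day 0), GFP-overexpressing cells on day 4 of differentiation medium (D4), METTL3-overexpressing cells in GM, and METTL14-overexpressing cells also in GM, with 2 libraries for every group. The titles of the METTL14 libraries give day 0 and their time point field gives day 4. The titles were followed here, and the paper also describes the METTL14 cells of its RNA-seq as kept in GM. One table compares D4 with GM in GFP cells, and the other two compare METTL3 or METTL14 cells with the same GFP libraries in GM.

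Each table lists only the genes that the authors' own test placed at an FDR of at most 0.05. Apart from the values of those tests, which were not used here, a row holds a single measurement, the mean normalized count. For genes in more than 1 table the mean was the same in each to within a relative difference of 4.77e-10, so it is 1 value over a common set of libraries, which the tables do not name, and it carries no difference between groups. There is no value per library, and the deposited tables give neither the depth of the libraries nor the spread between replicates. No difference in level between genes could therefore be set against replicate error, and no test was run. The mean is taken over several groups, while most of these genes are listed as differing between D4 and GM, so an order or ratio of levels between genes may not hold in either state alone. In such bulk samples, fewer cells of a type and less RNA per cell cannot be told apart.

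ATF4 is a bZIP transcription factor whose translation increases when the initiation factor eIF2 is phosphorylated, as happens when amino acids run short or unfolded protein accumulates in the endoplasmic reticulum. It binds composite C/EBP-ATF elements in genes for amino acid uptake and synthesis, tRNA charging and stress signalling. Aminoacyl-tRNA synthetases join each amino acid to its tRNA. The cytoplasmic enzymes fall into a pair of unrelated structural classes, and most are needed at all times for translation, in myoblasts and myotubes alike.

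Promoters of the listed genes were searched for the core of that element. RefSeq promoters (GRCm38.p6, 250 bases before to 50 bases after each annotated start) were found for 33 of the 40 genes, Mars under its newer symbol. Cars, Lars, Rars, Vars, Wars, Hars and Nars were not matched. The letters TGATGNAA, with any base at N, were searched on both strands. A match was present in 11 of the 33 genes (33.3%), against 1219 of the 27025 genes of the promoter table (4.51%). Among genes that also had a row in any deposited table, it was present in 10 of 29 listed genes (34.5%), against 216 of 7601 (2.84%). The 11 matching genes were Atf3, Trib3, Chac1, Nupr1, Asns, Pycr1, Iars, Yars, Aars, Gars and Tars. They are 5 of the 13 synthetase genes with a promoter and 6 of the 20 other genes.

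The narrower form TGATGCAA was present in 8 of the 33 genes (24.2%), against 1.03% of all genes of the promoter table. It was found in Atf3, Chac1, Nupr1, Pycr1, Iars, Yars, Aars and Tars. The E-box CACGTG, which reads the same on both strands and is bound by MYC and USF factors, was present in 6 of the 33 genes (18.2%), against 8.09% of all genes. Among genes with a row in any table, it was present in 6 of 29 listed genes (20.7%), against 11.3% of all such genes. Those were Nupr1, Aldh18a1, Iars, Aars, Farsb and Tars. Iars, Aars, Tars and Nupr1 had both kinds of match. The list was built around ATF4 and its targets, so these shares are not independent evidence about it. A match is a string of letters and not evidence of binding, and the absence of one says only that these letters were not in this window.

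The windows printed here hold a match with 10 bases on either side, all of them before the RefSeq start site, and they allow the core to be compared between a stress regulator, an amino acid enzyme and a synthetase. The gene strand is given 5′ to 3′ and capitals mark the match. Where the capitals read TTNCATCA, the element lies on the opposite strand. The windows of Asns, Atf3 and Nupr1 lie inside the wider gene spans of GENCODE M21, whose outermost start is further upstream than the RefSeq start used here.
Gars (chr6:55037961-55037988, plus strand): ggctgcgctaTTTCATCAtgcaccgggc
Asns (chr6:7693215-7693242, minus strand): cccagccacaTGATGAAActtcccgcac
Pycr1 (chr11:120643834-120643861, minus strand): gccctgtgtaTGATGCAAtgcacaaggc
Atf3 (chr1:191183426-191183453, minus strand): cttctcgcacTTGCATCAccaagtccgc
Chac1 (chr2:119351039-119351066, plus strand): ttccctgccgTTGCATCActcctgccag
Nupr1 (chr7:126625563-126625590, minus strand): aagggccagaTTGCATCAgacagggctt

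Counted from the RefSeq start site to the first base of the match, these windows lay at -30 (Gars), -23 (Asns), -103 (Pycr1), -110 (Atf3), -193 (Chac1) and -110 (Nupr1). The variable base differed within the group. Asns and Gars had the form with A at the variable place and the other windows the form with C, read on the strand of the element. The match of Tars began at -15, too near the start for such a window, and those of Yars, Iars and Trib3 began at 4, 8 and 15 after the start.

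**Figure D1:**
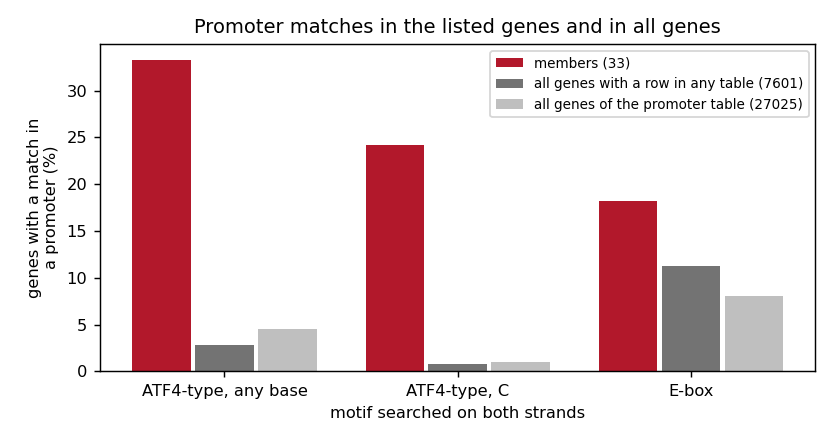
Share of genes (percent, y axis) with at least 1 match in a promoter, for the 8-base ATF4-type element with any base at the variable place, the same with C, and the E-box (x axis). Bars stand for the 33 listed genes, the 7601 genes with a row in any table and the 27025 genes of the promoter table, and the listed genes reach 33.3%, 24.2% and 18.2%.

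Which tables list a gene was described next, as the tables' content only. Of the 34 genes with a row, 31 (91.2%) had one in the table for D4 against GM, where 95.5% of all genes with a row in any table did. In the table for METTL3 cells 8 (23.5%) had a row, against 17.0% of all genes, and in the table for METTL14 cells 5 (14.7%), against 10.7%. The shares lay near those of all genes, and nothing particular to these genes is read from them. The base is the genes with a row in any table, because the genes that were tested and not listed are not named. All 3 tables share the GFP libraries in GM as their reference, so their lists of genes are not independent. Of the 34 genes, 25 were in the D4 table alone and 3 in all 3 tables, against 80.1% and 6.26% of all genes. One gene was in the METTL3 table alone and one in the METTL14 table alone, against 2.15% and 0.778% of all genes. The counts by role and by pathway given next stand beside the same shares of all genes, and since each rests on 17 genes or fewer, nothing particular to a group is read from them.

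The targeted genes had rows in their own tables: Mettl3 in the METTL3 table and Mettl14 in the METTL14 table. Mettl14 also had a row for D4 against GM, Mettl3 had none there, and neither was in the table of the other transgene. Reads from the transgene count toward these genes, since mouse cDNAs were used. All 8 muscle genes used to check the cell line (Myod1, Myf5, Des, Cdh15, Myog, Myh3, Acta1 and Ckm) had a row, with mean normalized counts between 593.1 and 53546. The leukocyte gene Ptprc, the endothelial gene Pecam1 and the adipocyte gene Adipoq had no row in any table, which does not show that they were absent.

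**Figure D2:**
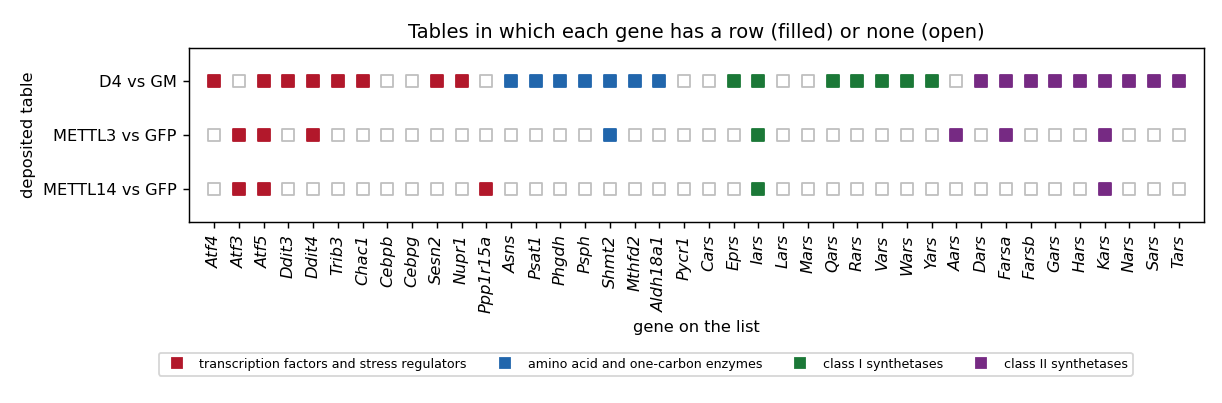
Each of the 40 genes (x axis) and each deposited table (y axis), with a filled square where the gene has a row and an open one where it has none, coloured by role. Filled squares number 31 for D4 against GM, 8 for METTL3 and 5 for METTL14.

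Among the transcription factors and stress regulators, 8 of the 10 genes with a row had one for D4 against GM (95.5% of all genes), 3 for METTL3 (17.0% of all genes) and 3 for METTL14 (10.7% of all genes). Atf5, a bZIP factor related to ATF4, was in all 3 tables (6.26% of all genes). Atf3, a bZIP factor induced by stress, was in both the METTL3 and METTL14 tables and not in that for D4. Ddit4, an inhibitor of mTORC1 signalling, was in the tables for D4 and METTL3. Ppp1r15a, the regulatory subunit that directs dephosphorylation of eIF2, was in the METTL14 table alone. Atf4, Ddit3, Trib3, Chac1, Sesn2 and Nupr1 were in the table for D4 alone, as were 80.1% of all genes.

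All 7 of the amino acid and one-carbon enzyme genes with a row had one for D4 against GM (95.5% of all genes). Shmt2, the mitochondrial serine hydroxymethyltransferase, was also in the METTL3 table (17.0% of all genes). None of the 7 was in the METTL14 table (10.7% of all genes). Among the synthetases, 16 of the 17 genes with a row had one for D4 (95.5% of all genes), 4 for METTL3 (17.0%) and 2 for METTL14 (10.7%). Iars and Kars, the isoleucyl and lysyl enzymes, were in all 3 tables, as were 6.26% of all genes. Farsa, the alpha subunit of the phenylalanyl enzyme, was in the tables for D4 and METTL3, while its partner subunit Farsb was in that for D4 alone. Aars, the alanyl enzyme, was in the METTL3 table alone. The remaining 13 synthetase genes, Farsb among them, had a row for D4 and in no other table, as did 80.1% of all genes.

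The abundance of the genes was described with the deposited mean normalized count, which ran from 139.9 to 6730 over the 34 genes. Because longer transcripts collect more reads, levels of different genes were compared after division by the exon length of the gene (merged exons of GENCODE M21, GRCm38). On that scale the median was 524.4 per kb for the 34 genes and 99.54 per kb for all genes with a row, and the median of their percentiles among all genes was 88.7. Of the 34 genes, 33 were above the median of all genes and Atf3 was below it. With the longest transcript as the length the medians were 790.0 and 135.5 per kb, and Sesn2 was then also below the median of all genes.

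**Figure D3:**
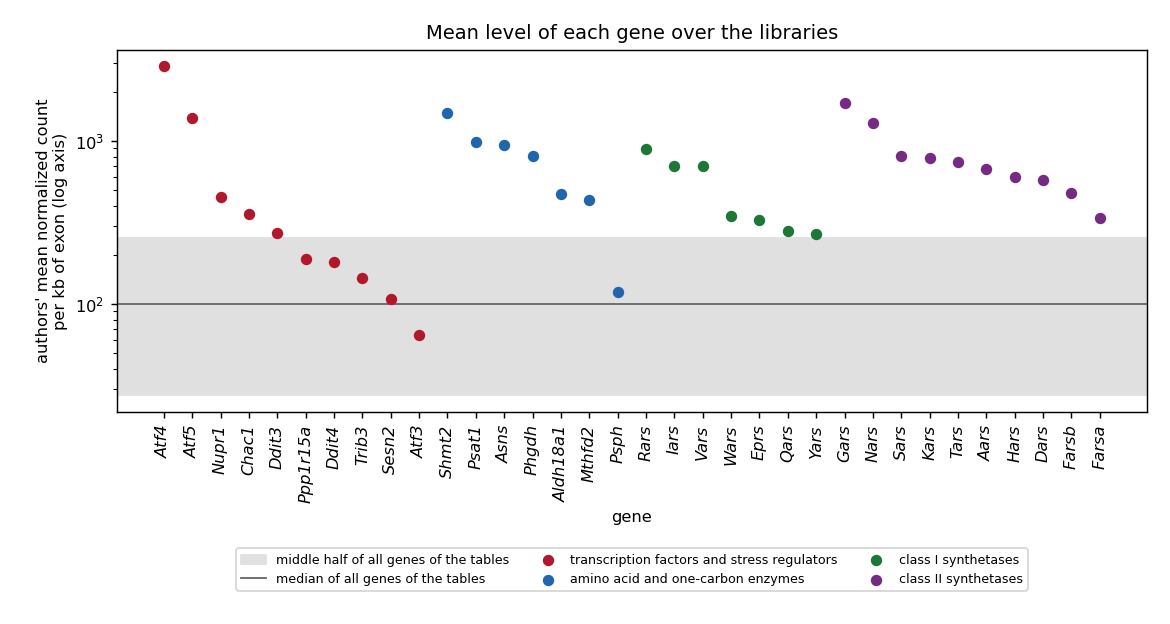
Authors' mean normalized count per kb of exon (y axis, log scale) of the 34 genes with a row (x axis), grouped by role and ordered by level. The grey band spans the quartiles of all genes of the tables (27.51 to 253.3 per kb) and the line their median (99.54), and each point is 1 mean with no error available.

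The stress regulators spanned the widest range. Atf4 (ENSMUSG00000042406, chromosome 15 of GRCm38, 80255184 to 80257541, plus strand) had the highest level of the group, 2854 per kb, from a mean normalized count of 6730. Atf5 (ENSMUSG00000038539, chromosome 7, 44812256 to 44816658, minus strand) was at 2745 and 1377 per kb, so that Atf4 was 2.07 times Atf5 per kb. Below these came Nupr1, a small stress-induced chromatin protein, at 454.7 per kb, and Chac1, which degrades glutathione, at 356.7 per kb.

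Ddit3, which encodes the bZIP factor CHOP, was at 270.5 per kb. Ppp1r15a was at 188.4, Ddit4 at 181.8 and the pseudokinase gene Trib3 at 144.6 per kb. Sesn2, a leucine sensor upstream of mTORC1, was at 107.6 per kb. Atf3 (ENSMUSG00000026628, chromosome 1, 191170296 to 191218039, minus strand) was lowest, with a mean normalized count of 139.9 and 64.94 per kb. Atf4 and Atf5 ranked 1 and 4 among the 34 genes per kb, while 7 of the other 8 regulators ranked 22 or lower. With the longest transcript as the length Atf5 ranked 6.

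The serine pathway makes serine from a glycolytic intermediate in 3 steps, catalysed by PHGDH, PSAT1 and PSPH in turn. Phgdh (ENSMUSG00000053398, chromosome 3, 98313170 to 98339990) had a mean normalized count of 1990 and 800.3 per kb. Psat1 (ENSMUSG00000024640, chromosome 19, 15904678 to 15947337) was at 4201 and 987.5 per kb. Psph (ENSMUSG00000029446, chromosome 5, 129765558 to 129787449) was at 514.1 and 118.8 per kb, so that Psat1 was 8.32 times Psph per kb. The gene of the last step was thus the lowest of the 3 per kb, and with the longest transcript as the length the ratio was 8.98.

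Serine is then used by SHMT2 and MTHFD2 in mitochondrial one-carbon metabolism. Shmt2 (ENSMUSG00000025403, chromosome 10, 127517123 to 127522444) was the highest of the enzyme genes at 1478 per kb (mean normalized count 4595), and Mthfd2 was at 434.0 per kb. Asns (ENSMUSG00000029752, chromosome 6, 7675169 to 7693254), which makes asparagine, was at 935.2 per kb. Aldh18a1, which begins proline synthesis from glutamate, was at 473.3 per kb.

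The 17 synthetase genes with a row had a median of 673.4 per kb (268.0 to 1705), against 434.0 per kb (64.94 to 2854) for the other 17 genes with a row, and the ranges overlapped. Class II genes had a median of 705.4 per kb (334.5 to 1705) and class I genes of 346.1 per kb (268.0 to 886.9). With the longest transcript as the length these medians were 1117 and 839.0 per kb, so the ordering was kept and the gap between the classes was smaller. Class II had a row for all 10 of its genes and class I for 7 of 10. The levels of Cars, Lars and Mars are not known, so the class I median does not cover its whole list. Eprs, a fused enzyme, was placed wholly in class I although its prolyl part is of class II. The class I median and the gap between the classes depend on that placement. The genes with the highest levels were Gars (glycyl, 1705 per kb) and Nars (asparaginyl, 1280 per kb), both of class II. Rars (arginyl) at 886.9 per kb led class I, also with the longest transcript, and Iars was at 704.4 and Vars (valyl) at 696.0.

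The other class II genes lay between 334.5 and 810.6 per kb. Sars (seryl) was at 810.6, Kars at 785.9, Tars (threonyl) at 737.5 and Aars at 673.4 per kb. Hars (histidyl) was at 602.3, Dars (aspartyl) at 572.0, Farsb at 476.8 and Farsa at 334.5 per kb. The alpha subunit gene Farsa was thus 0.702 times Farsb per kb, and 0.741 times with the longest transcript as the length.

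The other class I genes were Wars (tryptophanyl) at 346.1, Eprs (a fused glutamyl and prolyl enzyme) at 324.9, Qars (glutaminyl) at 277.8 and Yars (tyrosyl) at 268.0 per kb. Several values depended on the length used. With the longest transcript, 8 of the 17 synthetase genes (Eprs, Qars, Rars, Yars, Aars, Dars, Kars and Nars) and 3 of the other 17 genes (Ddit3, Psat1 and Mthfd2) were more than 1.5 times higher per kb. The order changed with it, so that Kars (1450 per kb) passed Sars (1168), Dars (1146) passed Tars (1063) and Aars (1087), and Eprs stood second in class I, before Vars (943.5) and Iars (839.0). Eprs moved furthest. Its mean normalized count was 5882, and its annotated exons cover 18102 bases while its longest transcript has 5638, which gave 1043 per kb. All 17 synthetase genes with a row were above the median of all genes per kb.

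Reads at some of these genes could not be assigned with certainty, since they share exon bases with other genes. The strand setting of the counting is not given in the sources used here and bears only on sharing with the opposite strand. Of the exon bases of Aars, 14.3% are shared with another annotated gene on the same strand. Psph shares 10.4% with Cct6a on the opposite strand, Farsb 9.47% with Sgpp2 and Hars 7.97% with Hars2. Ddit3 overlaps Mars and further gene models in part (4.73% of its exon bases on the opposite strand and 6.13% on its own). Atf5 shares 4.11% with genes on the opposite strand. Kars and Phgdh each have 1 annotated pseudogene named after them. The part of these overlaps in the levels was not tested.

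Mitochondria also use synthetases, most of them encoded by separate nuclear genes. The list used here holds no such separate gene beside Gars, Kars or Qars. Of 16 such genes, 9 had a row. Of these, 8 had one for D4 (95.5% of all genes), none for METTL3 (17.0%) and 1, Mars2, for METTL14 (10.7%). Tars2 had a mean normalized count of 744.1 (107.3 per kb) and Rars2 of 381.6 (137.7 per kb). The median of the 9 genes was 32.42 per kb (22.87 to 137.7), or 91.99 per kb with the longest transcript as the length, and all 9 were below the lowest cytoplasmic synthetase gene with a row. For 6 amino acids with both genes in this comparison, the cytoplasmic gene was higher in all 6 (median ratio 9.84 per kb). The ratio was largest for asparagine, where Nars was at 1280 and Nars2 at 26.69 per kb (48.0 times), and smallest for tyrosine, where Yars was at 268.0 and Yars2 at 100.1 per kb (2.68 times). With the longest transcript as the length the cytoplasmic gene was again higher in all 6, by 4.87 to 41.3 times (median 9.03).

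**Figure D4:**
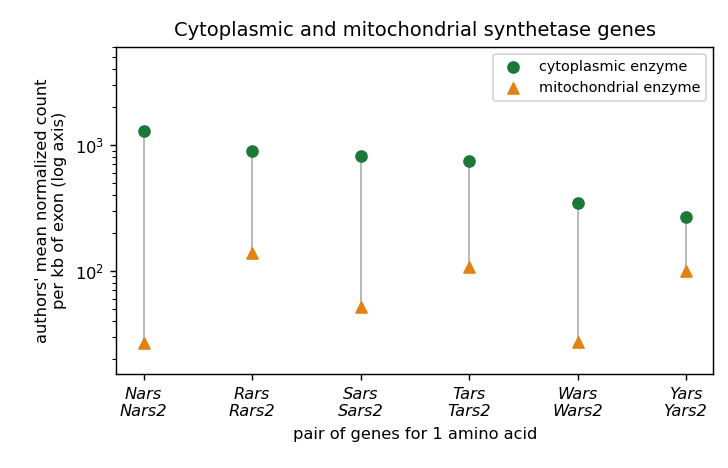
Authors' mean normalized count per kb of exon (y axis, log scale) for the cytoplasmic (circle) and mitochondrial (triangle) synthetase genes of 6 amino acids (x axis). The cytoplasmic gene is higher in each pair, by 2.68 to 48.0 times, and each point is 1 mean with no error available.

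The 3 scaffold genes of the multisynthetase complex, which holds several cytoplasmic synthetases together, each had a row for D4 (95.5% of all genes). Aimp1 had a mean normalized count of 901.2 and Aimp2 of 658.8. The third, Eef1e1, was also in the METTL14 table (10.7% of all genes). Per kb the levels were 161.0 for Aimp1, 398.3 for Aimp2 and 155.8 for Eef1e1, so that Aimp2 alone lay within the range of the cytoplasmic synthetase genes.

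Upstream of ATF4, 10 of 13 genes for eIF2 kinases, eIF2, its exchange factor eIF2B and the phosphatase subunit Ppp1r15b had a row, all of them for D4 and none for METTL3 or METTL14, where 95.5%, 17.0% and 10.7% of all genes had one. The eIF2 subunit genes Eif2s2 and Eif2s1 had mean normalized counts of 2609 and 1998. Of the kinases, Eif2ak2 (PKR) and Eif2ak3 (PERK) had rows, at 97.26 and 55.08 per kb, while Eif2ak1 and Eif2ak4 had none. Eif2s1, which encodes the subunit these kinases phosphorylate, stood at 403.6 per kb and Eif2s2 at 386.2, while the highest of the list per kb was Eif2b5, a subunit of eIF2B, at 450.8.

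Downstream, 7 of 9 amino acid transporter genes had a row, 6 for D4 (95.5% of all genes), 2 for METTL3 (17.0%) and 1 for METTL14 (10.7%). Slc38a2, a sodium-coupled neutral amino acid transporter, had a mean normalized count of 14365 and 1625 per kb. Slc3a2, the heavy chain of several heteromeric transporters, was at 5022 and 1423 per kb, and its 1 row was in the METTL3 table. Of 11 other ATF4 target genes, 10 had a row. Of these, 9 had one for D4 (95.5% of all genes), 5 for METTL3 (17.0%) and 2 for METTL14 (10.7%). For METTL3 and METTL14 the shares of this list lay above those of all genes, but they rest on 10 genes. Herpud1, a component of endoplasmic reticulum associated degradation, had a mean normalized count of 2468 and Eif4ebp1, a translational repressor, of 1963. All 4 further folate enzyme genes had a row for D4 and for no other table, as did 80.1% of all genes. Aldh1l2 had a mean normalized count of 1578 (210.3 per kb) and Mthfd1 of 1570 (353.5 per kb).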

How the data were processed

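RNA-seq of C2C12 cells in 4 groups of 2 libraries was considered. The authors aligned reads to GRCm38 with hisat2, counted them with featureCounts on the Ensembl annotation (version 102) and compared groups with DESeq2. Program versions are not given in the sources used here. What the authors deposited per gene as a signal is a mean over libraries of read counts divided by size factors. The log2 fold change, its standard error, the Wald statistic and both p-values in the tables are the authors' own comparisons and were not used, nor were unheaded cells. MeRIP-seq was not analysed here, and 1 gene of a further list and 1 promoter window are not reported here.

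Rows were matched by gene name. Of 10289 gene identifiers, 10282 were found in GENCODE M21, from which merged exon lengths were taken. That is not the annotation on which the authors counted reads (Ensembl version 102). The exons used for lengths and overlaps may therefore differ from those counted. Promoter letters were matched exactly. Percentiles give the share of genes at or below a value. The members and lists were chosen with earlier results of these data known. All members were named, and in each further list the 2 genes with the highest mean; others were named after their values were seen. The motif search was tested on simulated promoters with planted matches. Their other letters were A and C only, so this test could not show false matches. Exon length, exon overlap and percentile were checked on single known answers, and the other steps were not simulated. Protein motifs were not examined, since no protein sequences were used. Python 3.11.15, pandas 2.3.3, NumPy 2.4.6, SciPy 1.17.1 and matplotlib 3.10.9 were used.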

Additional observations from a re-analysis of the deposited data

How the results depend on the processing

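The counts of listed genes with a row in each table did not change with newer synthetase symbols, nor did the medians of the mean normalized count. Dropping genes with a mean under 100 normalized counts could not change either, since the lowest mean of the listed genes was 139.9. With the longest transcript as length, the median per kb was 1043 for synthetase genes and 478.2 for the other members, and the synthetase genes stayed higher. With protein-coding genes only, 18.5% of genes had a row for METTL3 and 11.6% for METTL14. With TGATGCAA in place of TGATGNAA the share of all genes was 1.03%. Counted per promoter sequence, an alternative chosen after seeing the data, it was 3.97%, while the share of listed genes was 31.4%. Coding length as the length was not run, because no protein sequences were used. No paired analysis was possible because the tables hold no value per library.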
